A study of Mus musculus with 6 samples.

Results

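The transcripts described here are those of 10 genes usually read as leukocyte genes (Lyz1, Lyz2, Cd74, H2-Aa, H2-Ab1, H2-Eb1, Ptprc, Laptm5, Tyrobp and Chil3) and of the adult haemoglobin chains, in cultured mouse embryonic stem cells. They comprise 22 probe sets annotated to exactly 1 of the 10 symbols and 4 probe sets annotated to several Hba or Hbb genes, 26 of 45101 on the array. They were chosen because some of them read higher in control arrays than in knockdown arrays, so the comparison with control is given as values without a test. The cells were E14Tg2a, an established line of mouse embryonic stem cells, and were profiled at 96 h after transfection with 1 of 3 small interfering RNAs. Ncl siRNA #1 and Ncl siRNA #2 target Ncl, the gene of the nucleolar protein nucleolin, and the control siRNA targets firefly luciferase, which mouse cells lack. Each group held 2 Affymetrix arrays, and nothing in the labels says that these came from separate cultures. The p-values below therefore rest on the spread between arrays, which may be technical.

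Lysozymes are secreted enzymes that cut bacterial cell walls, and in mice Lyz2 is abundant in macrophages and neutrophils while Lyz1 is best known from Paneth cells of the intestine. Cells of the alveolar epithelium of mouse lung are also known to make lysozyme and MHC class II. MHC class II molecules pair an alpha chain (H2-Aa) with a beta chain (H2-Ab1), or another such pair that holds H2-Eb1, and present peptides to T cells, while Cd74 encodes the invariant chain that escorts them. Ptprc encodes CD45, the surface phosphatase of nearly all nucleated blood cells, Tyrobp encodes the signalling adaptor DAP12 of myeloid and natural killer cells, Laptm5 a lysosomal membrane protein of blood cells, and Chil3 the chitinase-like protein Ym1 of macrophages. Haemoglobin, the oxygen carrier of red blood cells, joins alpha chains from the Hba cluster with beta chains from the Hbb cluster.

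Promoters of 3 families are shown because the results turn on genes that are near copies of each other or that share a control module. All are 140 bases directly upstream of a RefSeq transcript start (GRCm38.p6), written 5′ to 3′ on the gene's strand, and 11 of the 16 genes looked up had an entry. The lysozyme windows lie at chr10:117282273-117282412 on the minus strand and chr10:117292869-117293008 on the minus strand. They are identical at 127 of 140 bases (90.7%), and the capitals mark ACTTCCT, a motif read by PU.1 and other ETS factors, found on either strand in 4.80% of the 32851 promoters of the table over the same 140 bases.
Lyz2: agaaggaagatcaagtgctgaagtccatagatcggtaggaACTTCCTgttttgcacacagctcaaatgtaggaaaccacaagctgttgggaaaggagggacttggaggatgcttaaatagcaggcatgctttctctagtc
Lyz1: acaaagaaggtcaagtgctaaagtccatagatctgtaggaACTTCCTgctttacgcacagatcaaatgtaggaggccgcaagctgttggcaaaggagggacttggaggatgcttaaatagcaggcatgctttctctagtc
The MHC class II windows lie at chr17:34287824-34287963 on the minus strand and chr17:34305727-34305866 on the plus strand, with the Y box CTGATTGG and the core of the X box GCAACT in capitals. In each window the X box core lies upstream of the Y box. On either strand the Y box occurs in 3.07% and the X box core in 5.05% of all promoters.
H2-Aa: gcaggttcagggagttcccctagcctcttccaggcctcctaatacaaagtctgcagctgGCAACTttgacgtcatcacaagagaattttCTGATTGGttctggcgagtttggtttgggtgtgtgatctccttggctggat
H2-Eb1: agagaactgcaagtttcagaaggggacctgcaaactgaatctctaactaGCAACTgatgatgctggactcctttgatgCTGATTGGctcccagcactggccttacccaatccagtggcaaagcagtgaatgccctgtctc
The adult globin windows lie at chr11:32283532-32283671 on the plus strand and chr7:103827929-103828068 on the minus strand, with the CCAAT box and the TATA box TATAA in capitals. On either strand CCAAT occurs in 23.4% and TATAA in 13.5% of all promoters. The Y box above holds CCAAT on its other strand. The longer entries of Hba-a1 and Hba-a2, which hold the 140-base windows, share an unbroken run of 297 of 300 bases, offset by a few positions. Position by position, without that offset, their 140-base windows are identical at 36 of 140 bases (25.7%).
Hba-a1: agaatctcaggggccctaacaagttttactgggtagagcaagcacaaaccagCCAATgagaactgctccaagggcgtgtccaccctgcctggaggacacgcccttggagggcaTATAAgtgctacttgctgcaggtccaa
Hbb-bs: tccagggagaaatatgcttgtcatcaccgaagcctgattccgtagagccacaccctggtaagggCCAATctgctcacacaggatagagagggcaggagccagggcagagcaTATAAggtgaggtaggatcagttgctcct
A match of letters is a description and not a binding site. The haemoglobin probe sets below are annotated to several near copies at once. The suffixes _x_at and _s_at mark, in Affymetrix's naming, probe sets whose probes also match other transcripts.

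The stem cell label was borne out on all arrays. All 18 measured stem cell markers read above the array median on every array, and Pou5f1, the core pluripotency factor, averaged 13.24 with siRNA #1, 13.01 with siRNA #2 and 13.59 in control. Relative to control 11 of the 18 fell, 4 rose and 3 did not pass (limma adjusted p under 0.05). Of all 18193 genes, 19.9% fell and 19.3% rose on their brightest probe set. The mean level of the 18 was 11.25 to 11.57 per array with Ncl siRNA, against 11.82 to 11.84 in control. The largest falls with no overlap were those of Tcl1 (-2.06, SE 0.09), Tfcp2l1 (-1.33, SE 0.08), Fgf4 (-1.26, SE 0.07) and Klf2 (-0.88, SE 0.07). Ncl itself stood at 72.7% of control on its brightest probe set. The control arrays stood apart from all 4 Ncl siRNA arrays in other respects. Bacterial poly-A control RNAs averaged 8.39 to 8.86 per array with Ncl siRNA, against 7.58 to 7.74 in control, 18S ribosomal RNA probe sets 12.96 to 13.20 against 12.02 to 12.19, and hybridisation controls 11.15 to 11.25 against 11.98 to 12.07. Of 17 measured lung epithelium genes, 14 fell relative to control and 1 rose (limma adjusted p under 0.05). Over all genes these shares were 19.9% and 19.3%. The lung list was drawn up with earlier results of these data known, so its calls describe it and support nothing. Its mean level was 5.69 to 5.82 per array with Ncl siRNA, against 8.14 to 8.29 in control. The airway secretoglobin Scgb1a1 read 3.29 to 4.01 with Ncl siRNA, against 12.96 and 12.96 in control, and the gene that rose was Foxj1, by 1.32. The lung genes Sftpc, Bpifa1 and Scgb3a2 fell by 5.76 (SE 0.13), 4.98 (SE 0.15) and 3.96 (SE 0.22). Levels are log2 values as the authors deposited them, and differences are Ncl siRNA minus control unless stated. The part of these array-wide differences in the results below was not tested.

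The probe sets differed widely in their gap between control and Ncl siRNA arrays. Of the 26, 14 read lower in all 4 Ncl siRNA arrays than in both control arrays, 4 read higher and 8 overlapped, where 24.0% of all 45037 probe sets read lower in this way and 20.1% higher. At least 2-fold lower were 7 of the 26, against 1.35% of all probe sets, and these 7 were 2 of the 3 Lyz1 probe sets, the Lyz2 probe set and all 4 shared haemoglobin probe sets. The next largest difference was -0.92, of an H2-Ab1 probe set. The median difference was -3.95 over the 4 haemoglobin probe sets and -0.28 over the 22 others, beside -0.04 over all probe sets. Because the members were chosen on this contrast, these counts describe them and support nothing. The transcripts are called here by their genes rather than by a cell type. In bulk RNA fewer cells of a type and less RNA per cell cannot be told apart, and these are not the only readings. Where the lysozyme and haemoglobin signal of the control arrays came from was not tested.

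**Figure D1:**
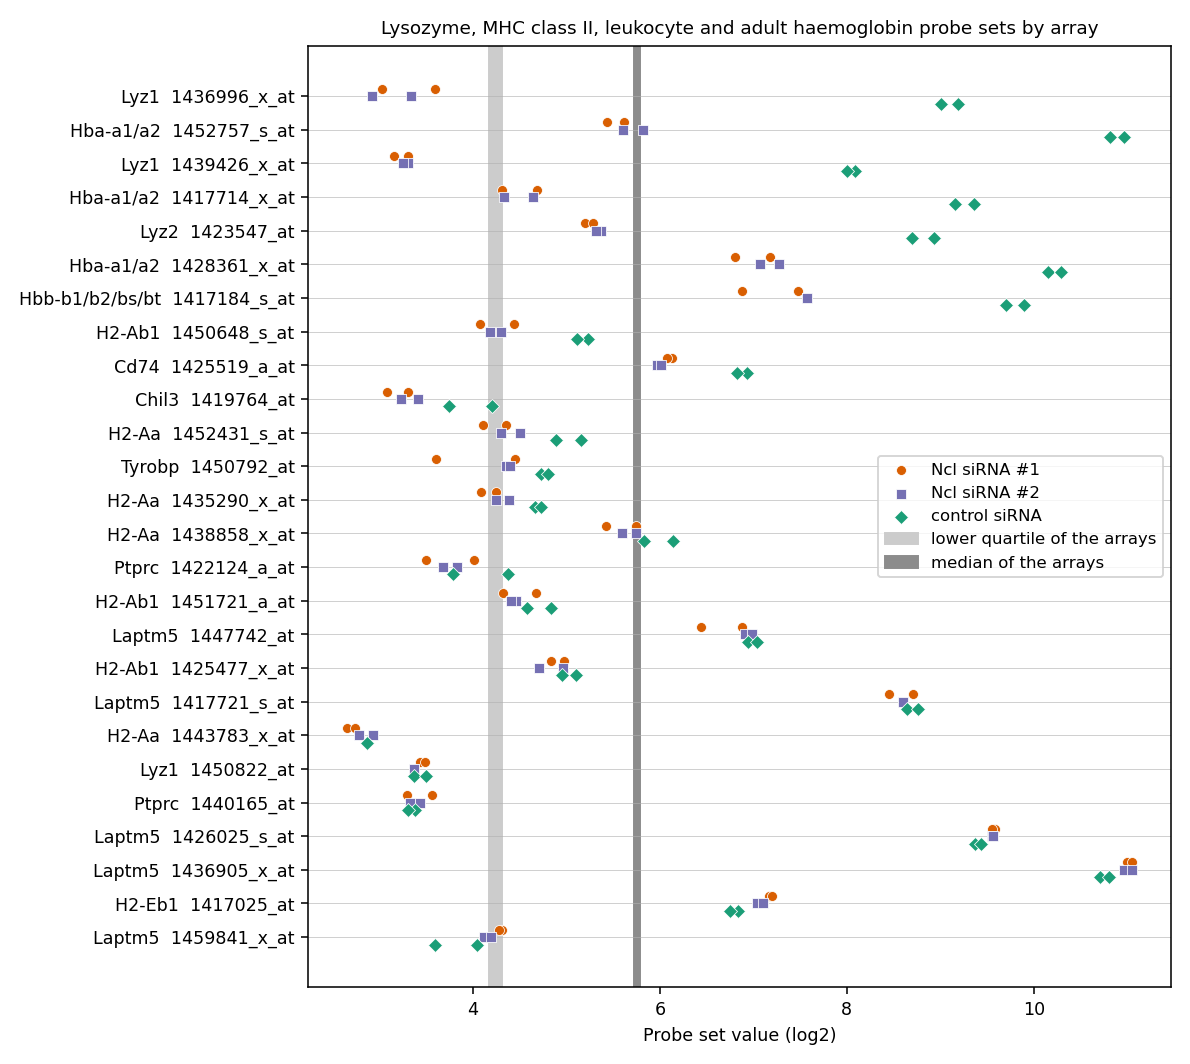
Value of each of the 26 probe sets on each array (log2, horizontal axis), ordered by the difference between Ncl siRNA and control. Circles are the 2 arrays of Ncl siRNA #1, squares those of Ncl siRNA #2 and diamonds those of control siRNA, the bands span the lower quartiles and medians of the 6 arrays, and in the top 7 lines the group means differ by -5.88 to -2.42.

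The widest gap was that of a Lyz1 probe set. The Lyz1 probe set 1436996_x_at read 3.03 and 3.60 with siRNA #1 and 2.92 and 3.34 with siRNA #2, against 9.01 and 9.19 in control. No Ncl siRNA array came near the control arrays, and the difference was -5.88 (SE 0.18). The Ncl siRNA readings lay at percentiles 0.613 to 11.3 of their arrays and the control readings at percentiles 82.6 to 83.8. Readings so near the bottom of an array need not follow the amount of transcript, so no share of control is given. A second Lyz1 probe set, 1439426_x_at, read 3.16 and 3.31 with siRNA #1 and 3.30 and 3.26 with siRNA #2, against 8.09 and 8.0 in control, a difference of -4.79 (SE 0.15), with the Ncl siRNA readings at percentiles 3.40 to 5.66. The third, 1450822_at, which carries no such suffix, read 3.44 and 3.48 with siRNA #1 and 3.37 and 3.37 with siRNA #2, against 3.37 and 3.49 in control. It lay at percentiles 6.14 to 9.34 on all arrays, and its groups overlapped, so the probe sets annotated to Lyz1 disagree.

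Lyz2 has 1 probe set of its own, which carries no suffix. It read 5.20 and 5.29 with siRNA #1 and 5.37 and 5.32 with siRNA #2, against 8.69 and 8.94 in control, and every control reading exceeded every Ncl siRNA reading. The difference was -3.52 (SE 0.13), which leaves 8.71% of control. Lyz2 stood at percentiles 42.7 to 43.7 in the Ncl siRNA arrays and at 80.1 and 81.9 in the control arrays. Of 10 measured relatives of the lysozyme and Chil3 genes, 1 fell, 1 rose and 8 did not pass (median -0.08), where 19.9% of all 18193 genes fell and 19.3% rose on their brightest probe set. Chil1, a chitinase-like protein, fell by 0.83 (SE 0.14, limma adjusted p = 1.63e-04), and Chid1, a chitinase-domain protein, rose by 0.57 (SE 0.15, limma adjusted p = 0.00697), a call lost without replicate 1 of control (0.46).

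The adult haemoglobin probe sets all read higher in control. The alpha chain probe set 1452757_s_at, shared by Hba-a1 and Hba-a2, read 5.43 and 5.61 with siRNA #1 and 5.82 and 5.60 with siRNA #2, against 10.82 and 10.96 in control. This difference, -5.27 (SE 0.11), left 2.58% of control. A second alpha chain probe set, 1417714_x_at, read 4.31 and 4.69 with siRNA #1 and 4.34 and 4.64 with siRNA #2, against 9.16 and 9.36 in control, a difference of -4.77 (SE 0.16). In both, every Ncl siRNA reading lay far below every control reading. The remaining alpha chain probe set, 1428361_x_at, read 6.81 and 7.17 with siRNA #1 and 7.27 and 7.08 with siRNA #2, against 10.16 and 10.29 in control, a difference of -3.14 (SE 0.11). The beta chain probe set, annotated to Hbb-b1, Hbb-b2, Hbb-bs and Hbb-bt, read 6.88 and 7.48 with siRNA #1 and 7.57 and 7.58 with siRNA #2, against 9.70 and 9.89 in control. It kept the most signal in the knockdown arrays, with 18.7% of control (difference -2.42, SE 0.13). Set against control one by one, siRNA #1 and siRNA #2 differed by -5.37 and -5.18, -4.76 and -4.77, -3.23 and -3.05, and -2.62 and -2.22 in the order given, comparisons that share the control arrays.

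Probe sets annotated to a single adult globin gene did not show gaps of this size. The Hba-a1 probe set read 4.22 and 4.62 with siRNA #1 and 4.81 and 4.85 with siRNA #2, against 4.36 and 4.42 in control, and the groups overlapped. The Hba-a2 probe set differed by -0.65, and the 2 Hbb-b2 probe sets by -0.74 and -0.43. All 3 of these read lower in every Ncl siRNA array than in both control arrays, by less than 1 log2 unit. Embryonic globins, made by the first red cells of the yolk sac, were low throughout. Of the 3 measured, Hbb-bh1 fell by 0.67 (SE 0.17, limma adjusted p = 0.00637), a call lost without replicate 2 of control (-0.35), while Hba-x (-0.23, SE 0.16, limma adjusted p = 0.321) and Hbb-y (0.03, SE 0.14, limma adjusted p = 0.912) did not pass. Hbb-y turned sign with each array centred on its median.

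Other genes of red blood cells did not follow the haemoglobins in size. Of 21 measured, 3 fell, 1 rose and 17 did not pass, beside 19.9% of all genes that fell and 19.3% that rose, with a median of -0.14 and a mean level of 5.58 to 5.80 per array with Ncl siRNA, against 5.81 to 5.83 in control. Without replicate 2 of siRNA #2 only 1 fell, and without replicate 2 of siRNA #1 5 fell and 2 rose. Alas2, the red cell enzyme that starts haem synthesis, read 4.45 and 4.67 with siRNA #1 and 4.60 and 4.42 with siRNA #2, against 4.98 and 5.10 in control. It fell by 0.51 (SE 0.15, limma adjusted p = 0.0147), a call lost without replicate 2 of siRNA #2 (-0.46) or of control (-0.45). Epor, the erythropoietin receptor, fell by 0.62 (SE 0.15) and Rhd, a Rhesus blood group protein, fell by 0.43 (SE 0.11), with calls lost without replicate 1 of control (-0.45 and -0.38), that of Rhd also without replicate 2 of siRNA #2 (-0.39). Car2, a carbonic anhydrase found in red cells and in many other tissues, rose by 1.46 (SE 0.04, limma adjusted p = 4.86e-14) from a level of 12.00 in control. The membrane and regulatory genes Slc4a1 (-0.09), Epb42 (-0.03), Klf1 (-0.09) and Gata1 (-0.14) did not pass.

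MHC class II genes gave small differences in both directions. Cd74 read 6.13 and 6.08 with siRNA #1 and 5.97 and 6.01 with siRNA #2, against 6.94 and 6.83 in control. The groups did not overlap, and the difference was -0.83 (SE 0.13), or 56.2% of control. Of the 3 H2-Ab1 probe sets, 1450648_s_at read 4.08 and 4.44 with siRNA #1 and 4.18 and 4.30 with siRNA #2, against 5.23 and 5.11 in control (difference -0.92, SE 0.15). The other H2-Ab1 probe sets differed by -0.16 and -0.24, and their groups overlapped. Of the 4 H2-Aa probe sets, 3 read lower in every Ncl siRNA array, by -0.70, -0.46 and -0.36 (the last of these, 1438858_x_at, -0.20 without replicate 1 and -0.51 without replicate 2 of control), and the fourth, at -0.09, overlapped and lay at percentiles of at most 0.639. H2-Eb1 went the other way. It read 7.17 and 7.20 with siRNA #1 and 7.04 and 7.11 with siRNA #2, against 6.83 and 6.75 in control, so all 4 Ncl siRNA arrays were higher (difference 0.34, SE 0.11).

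The other genes of the class II pathway showed no common direction. Of 15 measured, 2 rose, 3 fell and 10 did not pass, beside 19.3% of all genes that rose and 19.9% that fell, with a median of 0.03. Without replicate 1 of siRNA #2 or replicate 2 of control 1 rose. Ctss, cathepsin S, which trims the invariant chain, fell by 1.68 (SE 0.15, limma adjusted p = 9.36e-08), and Ifi30, a lysosomal thiol reductase, fell by 0.44 (SE 0.06, limma adjusted p = 1.50e-05). Rfxank, a subunit of the factor that binds the X box, fell by 0.40 (SE 0.12, limma adjusted p = 0.0166), a call lost without replicate 1 of siRNA #2 (-0.40) or replicate 2 of control (-0.24), and with variances without a trend. Cd80, a co-stimulatory ligand, rose by 2.75 (SE 0.13, limma adjusted p = 5.27e-11). Rfx5, another subunit of the X box factor, rose by 0.31 (SE 0.09), a call lost with the same arrays left out as for Rfxank (0.26 and 0.26). Ciita, the master activator of class II genes, read 5.22 and 5.38 with siRNA #1 and 5.68 and 5.45 with siRNA #2, against 5.37 and 4.95 in control, and did not pass (0.28, SE 0.16, limma adjusted p = 0.229).

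MHC class I molecules are used by nearly all cells to present peptides from inside the cell. Of 10 measured genes, 5 rose, 1 fell and 4 did not pass, beside 19.3% of all genes that rose and 19.9% that fell. The median was 0.22 and the mean level 7.97 to 8.20 per array with Ncl siRNA, against 7.47 to 7.52 in control. Nlrc5, the activator of class I genes, rose by 2.19 (SE 0.17), Tap1, a subunit of the peptide transporter, by 1.96 (SE 0.10), its partner tapasin, Tapbp, by 1.01 (SE 0.07) and the heavy chain genes H2-D1 by 0.97 (SE 0.08) and H2-K1 by 0.22 (SE 0.08), the call of H2-K1 being lost when any single siRNA #2 or control array was left out (0.19 to 0.26). Without _x_at and _s_at probe sets 3 rose. Psmb10, a subunit of the immunoproteasome, fell by 0.59 (SE 0.08). Class I heavy chains are close copies of each other, so these heavy chain values may hold signal of relatives. B2m, the light chain, did not pass in the mean of both siRNAs (0.09, SE 0.07, limma adjusted p = 0.332), and read 9.58 and 9.53 with siRNA #1 and 10.43 and 10.37 with siRNA #2, against 9.82 and 9.95 in control.

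Ptprc was low on all arrays. Its probe set 1422124_a_at read 4.01 and 3.50 with siRNA #1 and 3.83 and 3.68 with siRNA #2, against 4.37 and 3.78 in control. The groups overlapped, and the control arrays differed between themselves by 0.59. The other Ptprc probe set read 3.29 and 3.56 with siRNA #1 and 3.44 and 3.33 with siRNA #2, against 3.38 and 3.30 in control. No reading of either lay above percentile 26.2 of its array. Tyrobp read 3.61 and 4.45 with siRNA #1 and 4.35 and 4.40 with siRNA #2, against 4.73 and 4.80 in control (difference -0.56, SE 0.19, -0.35 without replicate 1 and -0.77 without replicate 2 of siRNA #1). Chil3 read 3.08 and 3.31 with siRNA #1 and 3.23 and 3.41 with siRNA #2, against 3.75 and 4.21 in control (difference -0.72, SE 0.14). For Tyrobp and Chil3 the groups did not overlap, but the control readings of Chil3 lay at percentiles 13.5 and 22.9 and differed by 0.46 between themselves. A probe set shared by Chil3 and its near copy Chil4 differed by -0.28.

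Laptm5 was read at high levels, with or without Ncl siRNA, only on probe sets with an _x_at or _s_at suffix. Such readings may hold signal of other transcripts. Its brightest probe set, 1436905_x_at, read 10.99 and 11.05 with siRNA #1 and 10.97 and 11.05 with siRNA #2, against 10.71 and 10.81 in control. All Ncl siRNA arrays were slightly higher (difference 0.26, SE 0.06), and the readings lay at percentiles 93.9 to 94.3 with Ncl siRNA and 92.9 to 93.3 in control. The probe set 1426025_s_at was also higher in every Ncl siRNA array, by 0.16, and so was the dim 1459841_x_at, by 0.40 (0.63 without replicate 1 and 0.18 without replicate 2 of control). The remaining probe sets, 1417721_s_at and 1447742_at, differed by -0.11 and -0.19, and their groups overlapped. The Laptm5 probe set without such a suffix, 1447742_at, read 6.44 to 7.04 over all arrays, at percentiles 58.3 to 66.0.

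Of the 26 probe sets, 8 read above the array median in all 4 Ncl siRNA arrays. They were 4 of the 5 Laptm5 probe sets, those of Cd74 and H2-Eb1, and 2 of the shared haemoglobin probe sets. In the same arrays, 7 read below the lower quartile (4.17 to 4.30), among them all 3 Lyz1 probe sets, both Ptprc probe sets and Chil3. In the control arrays 14 read above the median, and 5 below the lower quartile on both arrays. Of all 45037 probe sets, 21206 read above the median and 9696 below the lower quartile in all 4 Ncl siRNA arrays. In both control arrays the counts over all probe sets were 21754 and 10268. No detection call came with the values, so a reading above the median shows signal on the probe set and not by itself the transcript.

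Genes of leukocyte types showed no shift of the size seen for lysozyme and haemoglobin. Of 24 measured genes of cytoskeleton and signalling shared by leukocytes, 5 rose, 3 fell and 16 did not pass (median -0.04). Of all genes, 19.3% rose and 19.9% fell. Srgn, the granule proteoglycan serglycin, fell by 1.55 (SE 0.15), and Itgal, an integrin subunit of lymphocytes, fell by 0.96 (SE 0.17), whereas Arhgdib rose by 1.57 (SE 0.12) and Itgb2, the integrin partner of Itgal, by 0.86 (SE 0.15). Ptpn6, the phosphatase SHP-1, also fell, by 0.46, and Cd37, Cd44 and Evl rose by 0.66, 0.58 and 0.31. The call of Cd44 was lost without replicate 1 of control (0.47), and that of Evl without replicate 1 of siRNA #2 (0.29) or either control array (0.31 and 0.32). Spi1, which encodes PU.1, did not pass (-0.02, SE 0.14, limma adjusted p = 0.921). Without replicate 2 of siRNA #1 5 of these genes fell, and without replicate 1 of control 3 rose.

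Of 31 macrophage and monocyte genes, 8 fell, 3 rose and 20 did not pass (median -0.20), beside 19.9% of all genes that fell and 19.3% that rose, with mean levels of 5.36 to 5.55 per array with Ncl siRNA, against 5.70 to 5.71 in control. C1qa, a complement subunit made by macrophages, fell by 1.00 (SE 0.15), Ms4a6d, a membrane protein of macrophages, fell by 0.97 (SE 0.14) and Clec7a, the beta-glucan receptor dectin-1, fell by 0.87 (SE 0.15), with limma adjusted p from 4.32e-05 to 2.25e-04. Lgals3, galectin 3, fell by 0.84 (SE 0.06) in the mean of both siRNAs from a control level of 12.25. The siRNAs differed here, with Lgals3 higher under siRNA #2 than under siRNA #1 by 1.38 (limma adjusted p = 1.38e-08). Those that rose were Cd68, Cyba and Mrc1, by 0.36, 0.44 and 0.38, and Mrc1 lost its call without replicate 1 of siRNA #1, replicate 2 of siRNA #2 or either control array (0.30 to 0.47). Csf1r, the receptor that macrophages depend on, did not pass (-0.06, SE 0.14, limma adjusted p = 0.781). Of 16 genes of alveolar macrophages, 4 rose, 1 fell and 11 did not pass (median -0.02). Fabp4, a fatty acid carrier of these and of endothelial cells, fell by 1.71 (SE 0.14), Csf2ra, a receptor subunit for GM-CSF, rose by 1.62 (SE 0.13), Plet1, also a trophoblast gene, by 1.58 (SE 0.14) and Car4, a membrane carbonic anhydrase, by 0.77 (SE 0.14). Abcg1, a cholesterol exporter, rose by 0.25 (SE 0.09), a call lost when any single siRNA #2 or control array was left out (0.23 to 0.28). Without replicate 2 of siRNA #1, 2 genes of this list fell. Marco, the scavenger receptor of these macrophages, did not pass (-0.09, SE 0.15, limma adjusted p = 0.726).

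The counts in the lymphocyte, granulocyte, platelet and progenitor lists stand beside the same 19.9% of all genes that fell and 19.3% that rose. Of 16 neutrophil genes, 2 fell and 1 rose (median -0.13). Mmp9, a matrix protease, rose by 1.99 (SE 0.12), Hp, haptoglobin, fell by 1.03 (SE 0.17) and Lcn2, lipocalin 2, fell by 0.60 (SE 0.12), while S100a8 (-0.05) and S100a9 (-0.11), the chief granulocyte proteins, did not pass. Of 21 genes of T and natural killer cells, 3 fell and 0 rose (median -0.02). These were Prf1, Cd247 and Cd5, at -0.48, -0.45 and -0.41, and each lost its call without at least 1 of the arrays, and 1 gene fell when any single siRNA #2 or control array was left out. Cd3e, at 0.01, did not pass, and turned sign with quantile normalization and with centring on the median. Of 14 B cell genes, 1 fell, Cd79b, at -0.42 (median -0.16), a call lost when any single siRNA #2 or control array was left out, and Cd79a (-0.16) did not pass. With quantile normalization 3 B cell genes fell, and with arrays centred on their medians 4. Of 10 platelet genes, 1 fell, Nrgn, at -0.60 (median -0.05), a call lost without replicate 1 of siRNA #2 (-0.55) or replicate 2 of control (-0.33). Of 12 genes of blood stem and progenitor cells, 3 rose and 0 fell (median 0.09). These were Meis1 by 1.73 (SE 0.15), Hhex by 0.63 (SE 0.10) and Kit by 0.49 (SE 0.09). Without replicate 1 of siRNA #1, 2 neutrophil genes and 1 platelet gene rose and 2 platelet genes fell, without either siRNA #1 array 1 gene of T and natural killer cells rose and 2 B cell genes fell, and without replicate 2 of siRNA #1 or of control 1 progenitor gene fell.

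**Figure D2:**
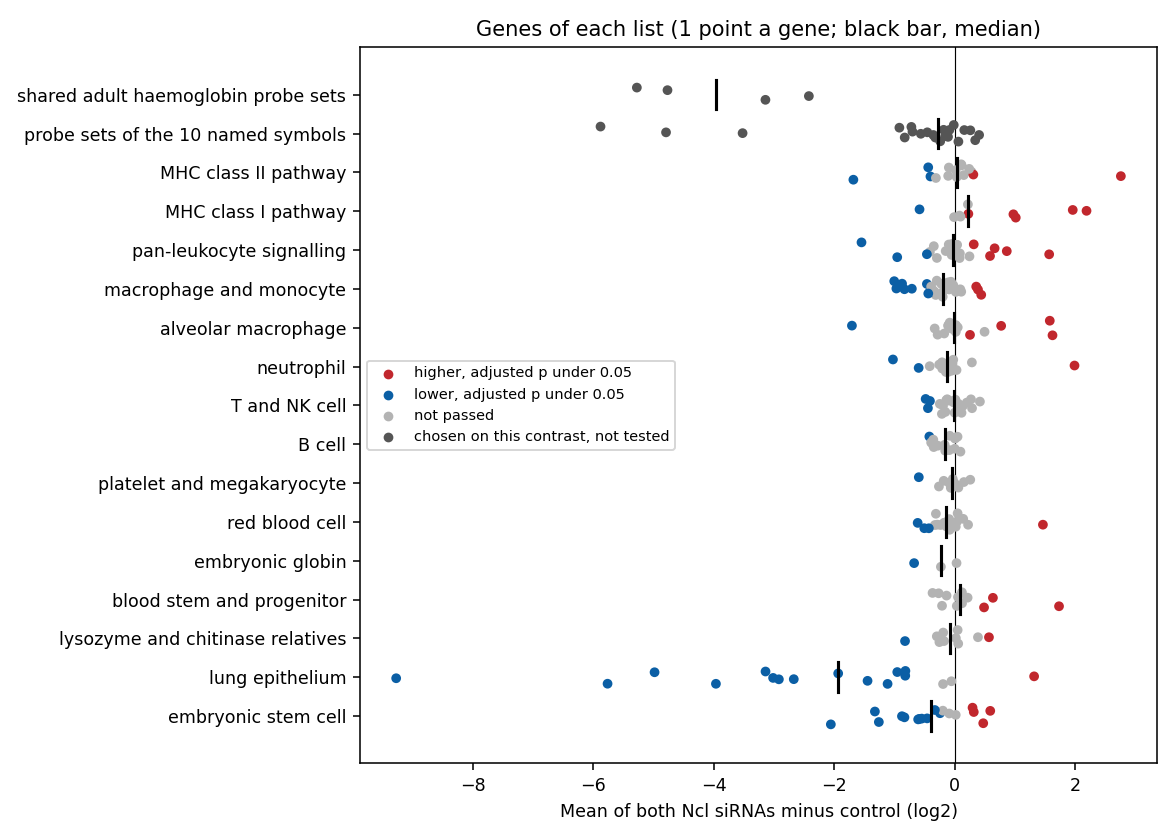
Difference of the mean of both Ncl siRNAs minus control for each gene (each probe set in the first 2 lines; log2, horizontal axis) in each list, with the list median as a black bar. Red genes were higher and blue genes lower at a limma adjusted p under 0.05, and dark points were chosen on this contrast and not tested. The haemoglobin probe sets sit between -5.27 and -2.42, and the medians of the blood cell lists between -0.23 and 0.09.

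The difference between the siRNAs is computed without the control arrays and had no part in choosing the members, so it was tested. The test is not free of the control arrays, because their spread enters the variances behind its p-values and intervals. None of the 26 probe sets differed between siRNA #2 and siRNA #1 at an adjusted p under 0.05 (limma, Benjamini-Hochberg over 45037 probe sets, lowest adjusted p = 0.186), where 2.91% of all probe sets did. At an unadjusted p under 0.05 there was 1 of the 26, against 17.0% of all. That was the beta chain probe set, higher with siRNA #2 by 0.39 (95% confidence interval 0.08 to 0.71). The intervals of the other large-gap probe sets were -0.63 to 0.26 and -0.31 to 0.40 for Lyz1, -0.22 to 0.42 for Lyz2, and -0.39 to 0.37, -0.09 to 0.46 and -0.09 to 0.47 for the alpha chain. A miss of the threshold does not show that the siRNAs act alike. Every Lyz1 reading under either siRNA was below its array's lower quartile, where the intervals do not bound a difference in the transcript. Replicate 1 of siRNA #1 read the beta chain at 6.88, against 7.48 in replicate 2. Without replicate 2 of siRNA #1, 3 of the 26 passed, all higher with siRNA #2, namely the beta chain (0.69, limma adjusted p = 0.00413), Tyrobp (0.76, limma adjusted p = 0.0194) and Laptm5 1447742_at (0.51, limma adjusted p = 0.0322). That omission also gave 6024 calls over all probe sets, against 1309 with all arrays and 285 without replicate 1 of siRNA #2.

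**Figure D3:**
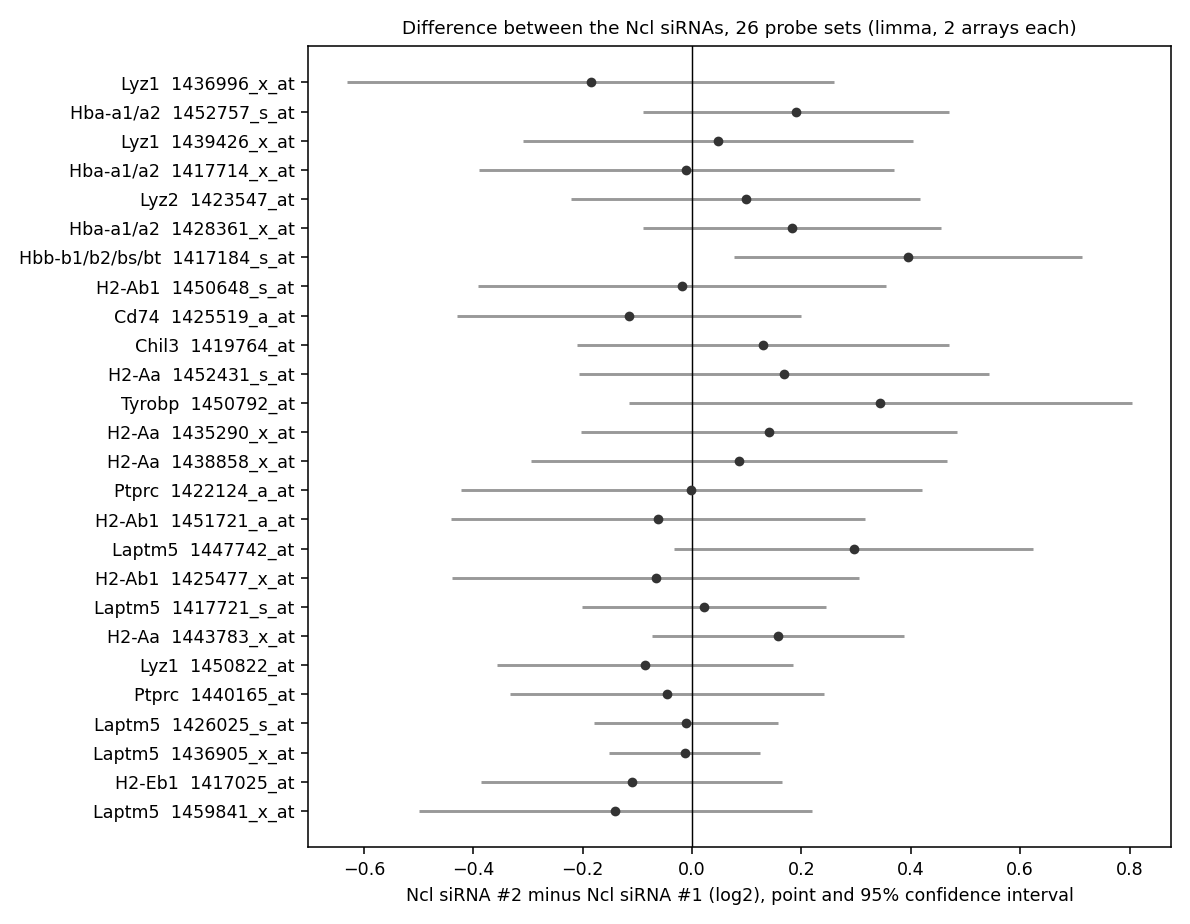
Difference of Ncl siRNA #2 minus Ncl siRNA #1 for each of the 26 probe sets (log2, horizontal axis), with points for the limma estimates and bars for 95% confidence intervals, in the row order of the plot of values by array. The points lie between -0.19 and 0.39, and the interval of the beta chain probe set lies above 0.

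The control arrays were also compared with each other, a measure that the choice of members did not use and that has 1 array a side and no test. Of the 7 probe sets with a gap of at least 2-fold, 6 read higher in control replicate 2 than in replicate 1. Several of the 7 are annotated to the same genes, so they are not independent readings. Their median difference, replicate 1 minus replicate 2, was -0.18, beside -0.0029 over all probe sets, of which 50.6% read higher in replicate 2. The 4 haemoglobin probe sets differed by -0.13 to -0.21, Lyz2 by -0.24 and the Lyz1 probe sets 1436996_x_at and 1439426_x_at by -0.18 and 0.08. Over all 26 probe sets the median was -0.06, with 16 higher in replicate 2. Of the 17 lung epithelium genes, 11 read higher in replicate 2, with a median of -0.08.

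**Figure D4:**
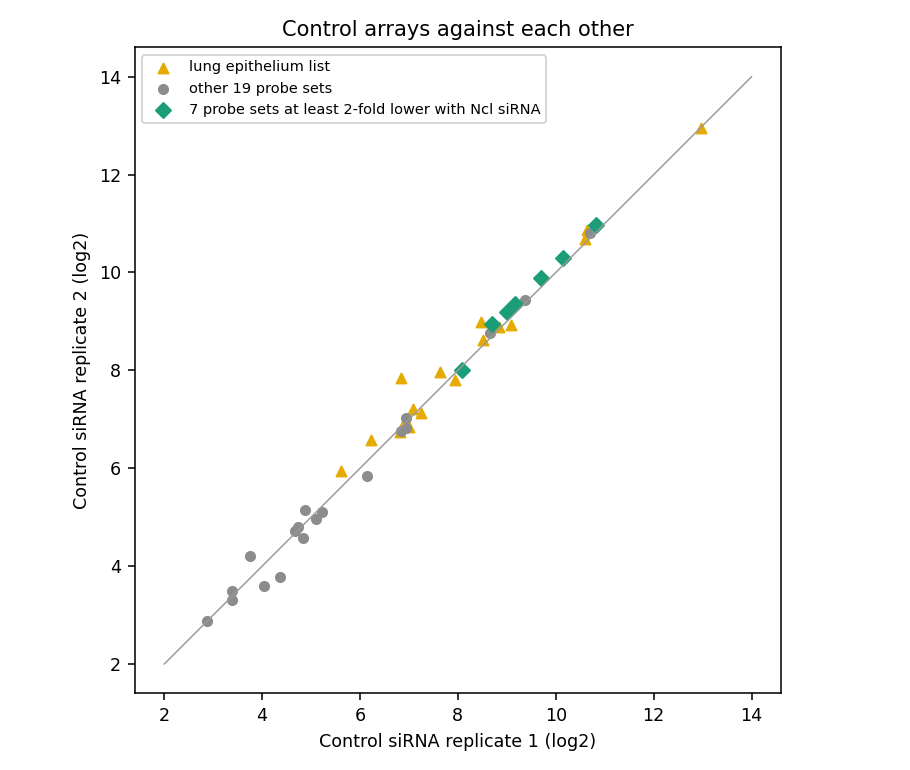
Control siRNA replicate 2 (vertical axis) against replicate 1 (horizontal axis), both log2 values, for the 7 probe sets at least 2-fold lower with Ncl siRNA (diamonds), the other 19 probe sets (circles) and the lung epithelium list (triangles), with the line of equal values. Of the 7 diamonds, 6 lie above the line.

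The genes whose pattern over the 6 arrays lay closest were sought for the Cd74 probe set and 1 shared haemoglobin probe set, not for lysozyme. Closeness was the root mean square difference of profiles centred on their mean. The 5 closest to Cd74 were Serac1, Lrch1, Ccnb1ip1, Slc29a3 and Pif1, at 0.03 to 0.04 log2 units, with differences from control of -0.78 to -0.87. Ccnb1ip1 averaged 10.45 with Ncl siRNA and 11.25 in control, and none of the 5 stands in the blood cell lists. The 5 closest to the beta chain probe set of haemoglobin were Ager, Inmt, Myl7, Aldh1a1 and Col3a1, at 0.27 to 0.31 log2 units. That probe set was the brightest of the 4 shared haemoglobin probe sets by its mean over all 6 arrays. It also had the smallest gap of the 4 (-2.42), and the measure depends on the size of the gap. Ager, a receptor abundant in the flat cells of the alveolus, averaged 5.94 with Ncl siRNA and 8.86 in control. Myl7, the atrial myosin light chain, averaged 5.37 with Ncl siRNA and 7.53 in control. The 6 arrays fall into 3 groups, and likeness over them is a description.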

How the data were processed

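Total RNA of E14Tg2a cells was extracted with a Qiagen kit and labelled with biotin by an Affymetrix IVT kit, per the labels. The deposited values, 45101 probe sets on each of 6 arrays, are on a log2 scale from 2.47 to 15.34. Their quartiles lay near each other (lower quartile 4.17 to 4.32, upper quartile 8.05 to 8.24), which does not by itself show that the arrays were scaled. Whether and how the authors scaled the arrays to each other, and with which background correction, is not given in the sources used here. The number of arrays, 2 per group, limits the precision.

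Probe sets were named from GEO's platform annotation, in which 34958 had 1 gene symbol, 932 several and 9211 none, and 0 symbols changed through the gene identifier. The 64 array controls were left out. The remaining 45037 were fitted in limma 3.58.1 (R 4.3.3) with 1 mean per group over all 6 arrays and a variance trend (3 residual and 13.0 prior degrees of freedom), with Benjamini-Hochberg adjustment over all of them at 0.05. The procedure was tested on simulated data. A gene of a list is read on its brightest probe set. The members, lists and tests were chosen with earlier results of these data known. Named are all members, up to 4 genes per list with the largest called difference and no overlap between Ncl siRNA and control arrays, a fixed set of markers, and the 5 most like profiles of Cd74 and of haemoglobin. Genes that did not pass and are given as such beyond the fixed markers (Slc4a1, Epb42, Klf1 and Gata1), and the called genes Psmb10, H2-K1, Rfx5, Ptpn6, Cd37, Cd44, Evl, Cd68, Cyba, Mrc1, Abcg1 and Foxj1 where the rule did not name them, were chosen after their values were seen. Alternatives were quantile normalization, centring on array medians, 1 probe set per gene, no _x_at or _s_at probe sets, a filter on dim probe sets, a variance model with no trend or a robust one, only the arrays compared, the replicate number as a block, and each array left out. Counts of list genes under these settings, each control array taken alone and arrays left out for genes outside the naming rule were added after the data were seen.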

Additional observations from a re-analysis of the deposited data

Results flagged for a closer look

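None of the 26 probe sets was singled out as differing between the siRNAs. Among the other genes named, 10 differed between siRNA #2 and siRNA #1 in limma's test of that difference, with Benjamini-Hochberg adjustment over all probe sets (n = 2 arrays each). Lgals3 was higher with siRNA #2 by 1.38 (adjusted p = 1.38e-08), with 10.83 and 10.61 under siRNA #1 and 12.08 and 12.12 under siRNA #2, against 12.20 and 12.29 in control. B2m was higher with siRNA #2 by 0.85 (adjusted p = 8.12e-06), H2-D1 by 0.69 (adjusted p = 4.73e-04) and Plet1 by 0.67 (adjusted p = 0.0345). Lower with siRNA #2 were Car4 at -0.66 (adjusted p = 0.0328), Tapbp at -0.58 (adjusted p = 6.71e-04), Tcl1 at -0.45 (adjusted p = 0.0211), Fgf4 at -0.37 (adjusted p = 0.0127), Nanog at -0.27 (adjusted p = 0.0119) and Pou5f1 at -0.23 (adjusted p = 0.0176). With each of the 6 arrays left out in turn, Lgals3 (1.27 to 1.48), B2m (0.82 to 0.88), H2-D1 (0.59 to 0.78) and Tapbp (-0.61 to -0.55) passed every time. The other 6 kept their direction but lost their call at least once, with 0.55 to 0.79 for Plet1, -0.86 to -0.46 for Car4, -0.61 to -0.30 for Tcl1, -0.45 to -0.30 for Fgf4, -0.33 to -0.22 for Nanog and -0.31 to -0.15 for Pou5f1. Fgf4 lost it without replicate 1 of either siRNA, Plet1 without any 1 of the 4 siRNA arrays, and Car4, Nanog, Pou5f1 and Tcl1 without replicate 1 of siRNA #1 or either siRNA #2 array.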

How the results depend on the processing

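Of 321 recomputed differences of the 26 probe sets from control, 306 moved by less than the spread between arrays and 15 by more. At least 2-fold lower were 7 under every setting that kept all 26, except 8 without replicate 2 of siRNA #1, and 1 of 10 (Lyz2) without _x_at and _s_at probe sets. Probe sets called between siRNA #2 and siRNA #1 numbered 1309 (432 higher, 877 lower), against 2104 (1549 lower) without dim probe sets, 107 (76 higher, 31 lower) with no variance trend and 541 lower with quantile normalization. Leaving out arrays in turn gave 285 to 6024 (151 to 1944 higher, 116 to 4080 lower), with 0 to 3 of the 26 called, a lone array being assumed to vary like the other groups. With 1 probe set per gene fewer features were tested, and 7649 (3700 higher, 3949 lower) were called in the mean of both siRNAs, 6814 (3667 and 3147) for siRNA #1 and 7181 (3227 and 3954) for siRNA #2, against 14182, 12215 and 12835.

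Among named genes that did not pass, signs turned. Hbb-y gave -0.0040 with centring and -0.12 to 0.18 with arrays left out, Cd3e -0.051 with quantile normalization, -0.023 with centring and -0.13 to 0.15 with arrays left out. With arrays left out, S100a8 ranged from -0.16 to 0.058, S100a9 from -0.26 to 0.045 and Spi1 from -0.097 to 0.047. The causes were not tested. With the replicate number as a block, 1289 probe sets were called between the siRNAs, 0 of them among the 26, and 14214 in the mean of both siRNAs against control. Differences of replicate 1 minus replicate 2 correlated between groups at only 0.00074 to 0.017, so no large shared replicate difference was seen. That does not show whether arrays of the same number were handled together. A fit of only the arrays compared is the same as the fit of all arrays for the mean of both siRNAs.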
